A study of Mus musculus with 384 samples.

Results

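Tgfb2, Tnc, Bgn and Col1a1 are 4 of the 46609 rows of a table of gene expression in single hair follicle stem cells of mouse back skin. The 4 genes were chosen by their measured levels, which were higher in dKO than in cKO cells of the Sca-1-negative sort, so their level in dKO over cKO is described here without a test. No threshold entered the choice. Each was found by its symbol at the end of the row name: ENSMUSG00000039239 for Tgfb2, ENSMUSG00000028364 for Tnc, ENSMUSG00000031375 for Bgn and ENSMUSG00000001506 for Col1a1. Levels are in TPM, a gene's share of the transcripts of a cell after division by transcript length, scaled to a fixed total. A cell at 10 TPM or more is called positive for a gene.

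The series holds 384 cells sorted one by one from mice of postnatal day 70, of which 378 were kept. The dKO mice carried NFIBfl/fl, with both Nfib alleles floxed, and the cKO mice NFIBfl/+, with 1 Nfib allele floxed. Both strains shared NFIXfl/fl, the R26-YFPfl/fl reporter and Sox9-CreER, an inducible Cre under Sox9 control, and no animal without floxed alleles enters the comparison. All cells were sorted as DAPI-negative, integrin alpha-6-positive and YFP-positive, and as Sca-1-positive or Sca-1-negative. The kept dKO Sca-1-negative cells came from 2 plates (93 and 61 cells) and the cKO ones from 3 plates (71, 47 and 65 cells). The kept Sca-1-positive cells were 19 dKO cells of plate 2 and 22 cKO cells of plate 3. Since no animal is named, plates cannot be tied to animals, plates are shown apart, and no p-value is given.

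Nfib and Nfix encode nuclear factor I transcription factors, which act in the stem cells of the follicle bulge. TGF-beta ligands are secreted in a latent complex, freed by integrins and proteases, and signal through paired receptors to SMAD proteins, which change transcription of matrix and cell cycle genes. Tgfb2 encodes one of these ligands and is best known in the follicle as a signal from the dermal papilla to nearby stem cells when hair growth starts. Tnc encodes tenascin-C, a large adhesion-modulating glycoprotein of the matrix. Bgn encodes biglycan, a small leucine-rich proteoglycan that binds collagen and TGF-beta. Col1a1 encodes a chain of type I collagen, which fibroblasts make together with the partner chain from Col1a2.

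The windows around the transcription starts of the members are shown because the strains differ in a factor that binds DNA. RefSeq windows of GRCm38.p6, 250 bases before to 50 after a start, were at hand for 3 of the 4 genes: Tgfb2, Tnc and Bgn. Capitals mark the nuclear factor I core TTGGC and the SMAD core CAGAC, on either strand (GCCAA and GTCTG on the printed strand). The Tgfb2 window is chr1:186705940-186706239 on the minus strand. The Tnc window is chr4:64046887-64047186 on the minus strand, whose RefSeq start lies 79 bases into the gene from the start in the GENCODE annotation. The Bgn window is chrX:73483351-73483650 on the plus strand.
Tgfb2: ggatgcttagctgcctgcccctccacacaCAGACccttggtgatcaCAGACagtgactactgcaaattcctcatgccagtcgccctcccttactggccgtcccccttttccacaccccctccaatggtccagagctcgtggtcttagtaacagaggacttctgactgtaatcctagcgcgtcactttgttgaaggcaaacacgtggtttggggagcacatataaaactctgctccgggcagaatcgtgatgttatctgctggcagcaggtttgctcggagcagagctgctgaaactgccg
Tnc: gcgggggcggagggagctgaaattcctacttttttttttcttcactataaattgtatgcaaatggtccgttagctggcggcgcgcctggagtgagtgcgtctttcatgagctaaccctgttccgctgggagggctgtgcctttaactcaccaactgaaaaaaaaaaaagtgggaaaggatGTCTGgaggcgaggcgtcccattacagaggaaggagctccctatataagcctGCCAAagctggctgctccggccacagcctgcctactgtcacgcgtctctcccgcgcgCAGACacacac
Bgn: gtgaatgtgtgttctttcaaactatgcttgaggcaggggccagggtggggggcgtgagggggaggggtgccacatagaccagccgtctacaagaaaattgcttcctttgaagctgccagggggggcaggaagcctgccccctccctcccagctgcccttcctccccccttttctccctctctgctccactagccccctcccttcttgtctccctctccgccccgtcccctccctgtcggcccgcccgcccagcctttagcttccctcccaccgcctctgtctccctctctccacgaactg
The Tnc window held the nuclear factor I core once, 18 bases before its start, and the Tgfb2 and Bgn windows did not hold these letters. The core occurs in 46.7% of the 32851 windows of this length. The full palindrome of 2 such cores around a spacer of 5 bases occurs in 0.0365% of windows, and in none of the windows of the 3 genes. The SMAD core occurred 2 times in the Tgfb2 window, 2 times in the Tnc window and not in the Bgn window, against 49.6% of all windows with at least 1. The AP-1 motif TGAGTCA, in 5.20% of windows, was in none of the windows of the 3 genes. A second RefSeq window of Tnc, at chr4:64046966-64047265, has its transcript start at the GENCODE start and held the SMAD core once and no nuclear factor I core.

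Several facts of the libraries bear on the values. All cells are labelled male, yet Xist, found in female cells, averaged 44.5 TPM on the first dKO plate and 51.4 and 59.8 TPM on the first 2 cKO plates, where Y-linked genes summed to at most 0.978 TPM. On dKO plate 2 and cKO plate 3 Xist was at most 0.102 TPM and the Y-linked sum was 34.1 TPM in dKO and 41.7 TPM in cKO. The plates of each genotype thus came from more than 1 animal, and the number of animals is not known. Comparisons were therefore also made within the Xist plates and within the Y plates. The median number of genes per cell was 4770 to 5199 over the 7 plate and sort combinations, read depth being unknown from TPM. In the Sca-1-negative sort it was 5199 and 5189 on the dKO plates and 4805, 4963 and 5044 on the cKO plates, without overlap. The part of this difference in the shares of positive cells was not tested. The ribosomal row Rn18s-rs5 took 55.3% to 61.5% of TPM, highest on dKO plate 1. Mean Nfib was 58.4 and 90.4 TPM on the dKO plates and 80.4, 72.8 and 67.1 TPM on the cKO plates of the Sca-1-negative sort. A level over the whole gene does not single out the floxed exon, so it does not check the genotype labels. Ly6a, which encodes Sca-1, was positive in 17 of 19 dKO and 18 of 22 cKO cells of the Sca-1-positive sort. In the Sca-1-negative sort, 26.2% to 35.5% of cells by plate were positive for it.

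The ligand gene Tgfb2 (chromosome 1, 186622792 to 186705989, minus strand) had mean levels of 33.1 ± 68.04 TPM and 41.5 ± 76.5 TPM on dKO plates 1 and 2, against 11.8 ± 44.5, 9.23 ± 29.7 and 12.1 ± 67.1 TPM on cKO plates 1, 2 and 3 (mean ± SD over cells, Sca-1-negative sort throughout unless said otherwise). Plate means of dKO all lay above those of cKO. Single cells overlapped: the lowest cell and the median cell were at 0 on every plate, and the highest cells were 368 and 256 TPM on the dKO plates and 312, 164.9 and 536 TPM on the cKO plates. Tgfb2-positive cells made up 31.2% and 34.4% of the dKO plates, against 12.7%, 12.8% and 12.3% of the cKO plates. In all, 50 dKO cells were positive (32.5%, 95% exact binomial interval 25.2% to 40.5%), against 23 cKO cells (12.6%, 8.14% to 18.3%). The intervals here and below cover counting error over cells only. The plate-averaged share of positive cells differed by 2.61-fold. Positive cells averaged 111.2 TPM in dKO and 87.98 TPM in cKO, a ratio of 1.26, with medians of 93.03 TPM in dKO and 46.9 TPM in cKO. The cKO mean included 1 cell of plate 3 at 536 TPM, which held 67.98% of that plate's Tgfb2, and without it the ratio of the means was 1.64. Leaving out this cell, here and below, was a choice made after the data were seen. The ratio of the plate-averaged means, with a pseudocount of 1 TPM added, was 3.17 (log2 1.67). It was 2.95 within the Xist plates and 3.24 within the Y plates. Without the cell at 536 TPM it was 4.10 over all plates and 8.60 within the Y plates. A pseudocount pulls the ratios of low genes toward 1.

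For Tnc (chromosome 4, 63959785 to 64047015, minus strand) the means were 30.2 ± 74.3 and 35.2 ± 82.3 TPM on the dKO plates, against 4.83 ± 13.5, 9.13 ± 24.4 and 4.4005 ± 15.2 TPM on the cKO plates. The lowest and the median cell were at 0 on all 5 plates. The highest cells reached 422 and 440 TPM on the dKO plates, against 85.1, 115.8 and 96.02 TPM on the cKO plates. Tnc was positive in 42 dKO cells (27.3%, interval 20.4% to 35.03%) and in 24 cKO cells (13.1%, 8.59% to 18.9%). The plate-averaged share was 2.03-fold and the mean level in positive cells 2.83-fold as high in dKO, at 117.1 TPM in dKO and 41.3 TPM in cKO. Cells above 100 TPM numbered 15 in dKO and 2 in cKO. The ratio of means was 4.73 (log2 2.24), 3.91 within the Xist plates and 6.70 within the Y plates.

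Bgn (chromosome X, 73483602 to 73495933, plus strand) was the member found in most cells. It averaged 44.02 ± 81.3 and 61.2 ± 111.2 TPM on the dKO plates, against 11.002 ± 27.1, 14.5 ± 33.1 and 22.3 ± 64.5 TPM on the cKO plates. The lowest cell was at 0 on every plate, the median cell was at 0.53 TPM on dKO plate 1 and at 0 on the others, and the highest cells were 422 and 537 TPM on the dKO plates, against 149.9, 130.6 and 351 TPM on the cKO plates. Bgn was positive in 65 dKO cells (42.2%, interval 34.3% to 50.4%) and in 37 cKO cells (20.2%, 14.7% to 26.8%). Positive cells averaged 120.02 TPM in dKO and 77.4 TPM in cKO. The ratio of means was 3.16 (log2 1.66), 3.27 within the Xist plates and 2.67 within the Y plates.

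Col1a1 (chromosome 11, 94936224 to 94953042, plus strand) had the lowest mean levels of the 4 in both strains. It averaged 11.8 ± 35.4 and 23.8 ± 57.7 TPM on the dKO plates, against 3.03 ± 12.3, 0.727 ± 4.72 and 3.52 ± 19.3 TPM on the cKO plates. The lowest and the median cell were at 0 everywhere, and the highest cells were 238 and 317 TPM on the dKO plates, against 86.6, 32.3 and 148.3 TPM on the cKO plates. Col1a1 was positive in 30 dKO cells (19.5%, interval 13.5% to 26.6%) and in 9 cKO cells (4.92%, 2.27% to 9.13%). The ratio of means was 5.48 (log2 2.46), 4.45 within the Xist plates and 5.48 within the Y plates. It was above that of Tnc over all plates and below it within the Y plates. The 9 cKO cells came as 5, 1 and 3 of the 3 plates, and on cKO plate 2 only 2 cells had any Col1a1, the higher of them with 94.6% of it.

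By the rule used for other genes, a ratio of at least 1.5 with no overlap of plates in mean TPM or in mean log2(TPM + 1), all 4 members were higher in dKO. Of 7103 genes averaging at least 5 TPM, the rule called 1.76% higher in dKO and 3.96% lower. Since this contrast chose the members, nothing is read from their count. The median log2 ratio of the 7103 genes was -0.12. Rescaling after removal of the 5 most abundant rows and the ERCC spike-ins moved that median to 0.00 and the shares to 4.81% higher and 3.16% lower, and plate size factors gave 2.78% higher and 2.09% lower. The members were higher under both scalings, with log2 ratios up to 2.77 for Col1a1. The call of Col1a1 was lost without dKO plate 2, at a log2 ratio of 1.90, and without the highest 5% of cells, at 2.95. In both settings its average over plates fell under the limit of 5 TPM, so the gene was not tested.

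**Figure D1:**
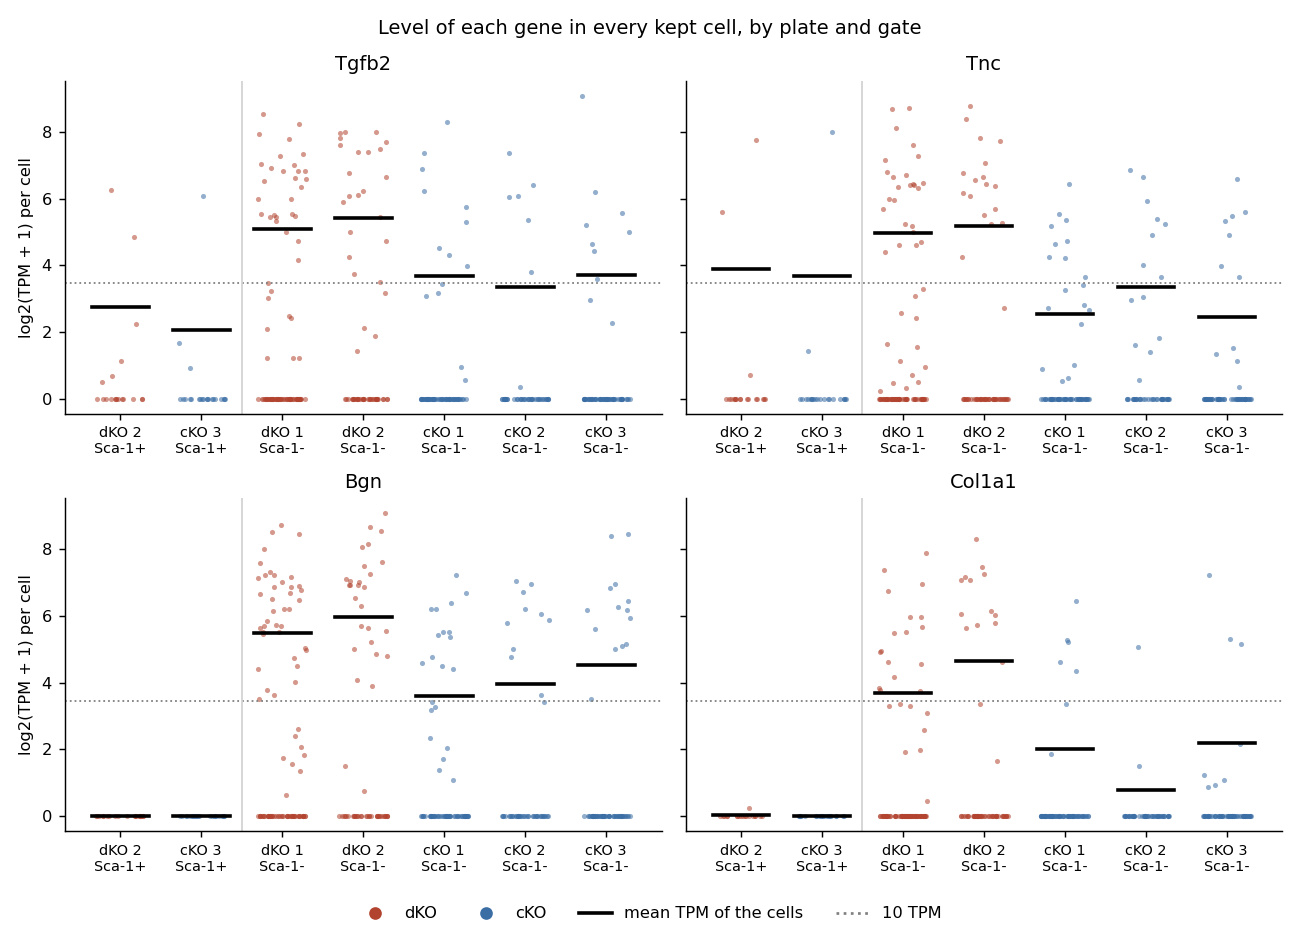
Level of Tgfb2, Tnc, Bgn and Col1a1 in each kept cell as log2(TPM + 1), by genotype, plate number and sort (Sca-1+ positive, Sca-1- negative); points are cells with random sideways jitter, the black bar is the log2 of the mean TPM plus 1, and the dotted line marks 10 TPM. Most cells sit under the dotted line on every plate, the dKO Sca-1-negative plates hold more cells above the dotted line than the cKO plates, and no Sca-1-positive cell reaches 10 TPM of Bgn or Col1a1.

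The Sca-1-positive sort held few member-positive cells. Bgn was at 0 in all 19 dKO and all 22 cKO cells, which by a limit of 3 cells allows a positive share of up to 15.8% in dKO and 13.6% in cKO. The upper ends of the exact intervals are 17.6% in dKO and 15.4% in cKO. Col1a1 reached at most 0.17 TPM in the dKO cells and was at 0 in the cKO cells. Tnc was positive in 2 of 19 dKO cells, at 213 and 47.4 TPM, and in 1 of 22 cKO cells, at 256 TPM. Tgfb2 was positive in 2 of 19 dKO cells, with 75.8 TPM as the highest, and in 1 of 22 cKO cells, at 66.9 TPM. With so few cells, a difference of Tnc or Tgfb2 between genotypes was not detectable in this sort. Set against the Sca-1-negative cells of the same plate, Bgn, Col1a1 and Tgfb2 were at least 2-fold lower in Sca-1-positive cells on both plates that hold both sorts, as were 8.93% of measured genes. For Tgfb2 this rested on the cell at 536 TPM of cKO plate 3: without it the log2 ratio there was -0.24 and the 2-fold difference was lost. Their log2 ratios on dKO plate 2 and cKO plate 3 were -5.96 and -4.54 for Bgn, -4.62 and -2.18 for Col1a1, and -2.65 and -1.65 for Tgfb2. Tnc gave -1.29 and 1.24, and the positive value rested on the single cell at 256 TPM.

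Cd34, a surface marker of bulge stem cells, divides the Sca-1-negative cells into 2 classes at 10 TPM. Cd34-positive cells numbered 39 in dKO (25.3%, interval 18.7% to 32.95%) and 52 in cKO (28.4%, 22.01% to 35.5%). Their Cd34 averaged 135.7 TPM in dKO and 264 TPM in cKO, so the classes of the genotypes differ in Cd34 level though little in size. Whether the same kinds of cell fall above the threshold in both strains was not tested.

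In dKO the matrix genes were concentrated in Cd34-positive cells. Col1a1 was positive in 26 of 39 Cd34-positive dKO cells (66.7%) and in 4 Cd34-negative ones (3.48%). Bgn was positive in 33 Cd34-positive cells (84.6%) and 32 Cd34-negative ones (27.8%), and Tnc in 23 (58.97%) and 19 (16.5%). The intervals of the classes did not overlap for any of the matrix genes: 49.8% to 80.9% and 0.956% to 8.67% for Col1a1, 69.5% to 94.1% and 19.9% to 37.0% for Bgn, and 42.1% to 74.4% and 10.3% to 24.6% for Tnc. Both dKO plates gave the same order. Col1a1 was positive in 65.2% and 68.8% of the Cd34-positive cells of dKO plates 1 and 2, against 2.86% and 4.44% of the Cd34-negative cells. The Cd34-positive cells, 24.7% of plate 1 and 26.2% of plate 2 in dKO, held 91.05% and 85.4% of the Col1a1 TPM of plates 1 and 2, 61.03% and 52.6% of the Bgn TPM and 44.6% and 61.3% of the Tnc TPM.

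Tgfb2 was arranged the other way in dKO. It was positive in 9 of 39 Cd34-positive cells (23.1%, interval 11.1% to 39.3%) and in 41 Cd34-negative cells (35.7%, 26.9% to 45.1%), so the intervals overlapped. The Cd34-positive cells held 17.7% and 9.95% of the Tgfb2 TPM of dKO plates 1 and 2. Mean Tgfb2 was 23.6 and 15.7 TPM in the Cd34-positive cells of these plates, against 36.2 and 50.6 TPM in the Cd34-negative cells.

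In cKO the shares of positive cells were closer between the classes for Bgn, Tnc and Tgfb2. Col1a1 was positive in 8 of 52 Cd34-positive cKO cells (15.4%) and in 1 Cd34-negative one (0.763%), so 8 of its 9 positive cells were Cd34-positive. Bgn was positive in 12 Cd34-positive cKO cells (23.1%) and 25 Cd34-negative ones (19.1%), Tnc in 11 (21.2%) and 13 (9.92%), and Tgfb2 in 7 (13.5%) and 16 (12.2%). The cKO plates differed among themselves. Cd34-positive cells held 24.2%, 47.7% and 59.96% of the Tnc TPM of cKO plates 1, 2 and 3, and 31.03%, 46.6% and 61.1% of the Bgn TPM, while making up 32.4%, 27.7% and 24.6% of the cells. On cKO plates 2 and 3 these shares of TPM were near those of the dKO plates, but they rested on few cells. Bgn and Tnc were each positive in 3 of 13 Cd34-positive cells on cKO plate 2 and 5 of 16 on cKO plate 3. On dKO plates 1 and 2 these counts were 20 of 23 and 13 of 16 for Bgn. For Tnc they were 13 of 23 and 10 of 16. The Bgn share of cKO plate 3 drew on 2 Cd34-positive cells at 351.35 and 337.93 TPM, and was not computed without them. A level at least 2-fold higher in Cd34-positive cells on both dKO plates was seen for 3 of the 4 members, Tnc, Bgn and Col1a1, and for 2.83% of measured genes. On all 3 cKO plates it was seen for Col1a1 alone of the 4, and for 3.17% of measured genes. Whether the Cd34 pattern of Bgn or Tnc differs between the strains was not tested.

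**Figure D2:**
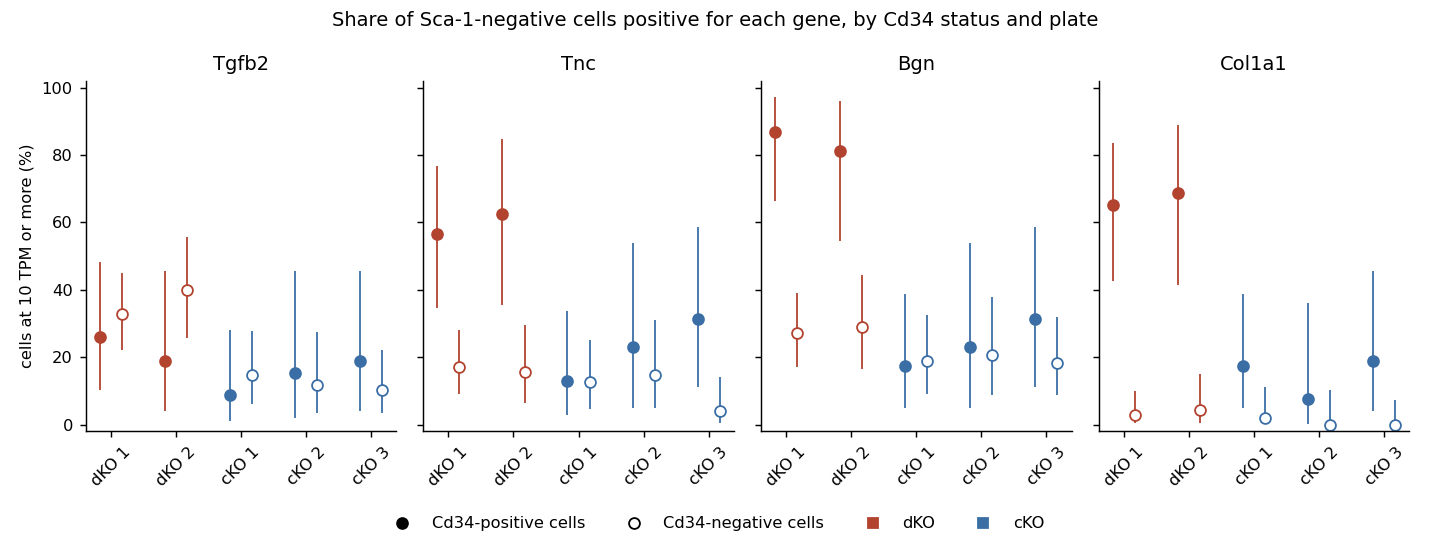
Percent of Sca-1-negative cells at 10 TPM or more of each gene, for Cd34-positive cells (filled) and Cd34-negative cells (open) of each dKO and cKO plate, with 95% exact binomial intervals. On both dKO plates the filled points lie well above the open ones for Tnc, Bgn and Col1a1 and below them for Tgfb2. On each single cKO plate the intervals of the classes overlap for every gene. With the cKO plates pooled, those of Col1a1 do not overlap.

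Within Cd34-positive cells the mean TPM ratio of dKO over cKO was 6.29 for Tnc, 3.75 for Bgn, 6.87 for Col1a1 and 1.02 for Tgfb2. Within Cd34-negative cells it was 3.69 for Tnc, 2.64 for Bgn, 2.96 for Col1a1 and 4.63 for Tgfb2. No difference between the ratios of the classes was tested. For Bgn the mean was 115.7 TPM in dKO and 30.1 TPM in cKO Cd34-positive cells. The ratio of Col1a1 in Cd34-negative cells rested on 2 cells of dKO plate 2, at 135.1 and 64.6 TPM, and was 1.34 without them. The ratio of Tnc in Cd34-negative cells also drew on single cells, at 422 TPM on dKO plate 1 and 440 TPM on dKO plate 2. The means of these classes were 22.2 and 18.5 TPM, and the Tnc ratio without these cells was not computed. The value of 1.02 for Tgfb2 rested on 1 cell of cKO plate 3 at 536 TPM. Without it the mean of the cKO Cd34-positive cells was 8.27 TPM, against 19.7 TPM in dKO, a ratio of 2.23. The other plates also rested on few Cd34-positive cells, and none of those was left out. The highest were at 154.4 and 167.7 TPM on dKO plates 1 and 2, of 6 and 3 positive cells. On cKO plates 1 and 2 they were at 73.2 and 164.9 TPM, of 2 positive cells each. Neither 1.02 nor 2.23 is therefore firm.

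Some single cells carried several of the matrix genes at once. Tnc, Bgn and Col1a1 were all positive in 20 dKO cells (12.99%, interval 8.12% to 19.3%) and in 3 cKO cells (1.64%, 0.339% to 4.72%). Of the 20 dKO cells, 18 were Cd34-positive. At least 2 of the 4 members were positive in 59 dKO cells (38.3%) and 13 cKO cells (7.10%), and at least 1 in 68.8% of dKO cells and 41.5% of cKO cells. Every one of the 39 Cd34-positive dKO cells was positive for at least 1 member, against 29 of 52 Cd34-positive cKO cells (55.8%). The 2 dKO plates were alike in the first count, with all of Tnc, Bgn and Col1a1 in 10 of 93 and 10 of 61 cells. All of these counts rise with the shares of the single genes, which go with the contrast that chose the members. No expected number was computed for them, so nothing is read from their difference between the strains.

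Co-detection was set against the number of cells that the share of each gene on each plate would give if the genes were spread independently. In dKO, Tnc and Bgn were both positive in 31 cells where 17.7 were expected, a ratio of 1.75 with an exact Poisson interval of 1.19 to 2.48. Tnc and Col1a1 met in 22 cells, with 8.19 expected (2.69, interval 1.68 to 4.07), and Bgn and Col1a1 met in 26 cells, with 12.7 expected (2.05, 1.34 to 3.01). Put as shares, 26 of the 30 Col1a1-positive dKO cells were also Bgn-positive (86.7%), against 39 of the Col1a1-negative ones (31.5%). For each member the median ratio over all measured genes was at least 0.984 in dKO.

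Tgfb2 was seldom found with Tnc or Col1a1. In dKO, Tgfb2 and Tnc were both positive in 3 cells where 13.6 were expected, a ratio of 0.22 with an interval of 0.0453 to 0.642. Tgfb2 was positive in 3 of the 42 Tnc-positive dKO cells (7.14%) and in 47 of the Tnc-negative ones (41.96%). Both plates showed it, with 2 cells where 7.80 were expected on dKO plate 1 and 1 cell where 5.85 were expected on dKO plate 2. Tgfb2 and Col1a1 met in 3 cells, with 9.78 expected (0.31, interval 0.0633 to 0.897). With cells counted from 1 TPM or 5 TPM the ratio was 0.64 and 0.58. Within Cd34-positive dKO cells it was 0.50, with an interval of 0.104 to 1.47, and within Cd34-negative ones no cell had both where 1.46 were expected. Tgfb2 and Bgn met in 19 cells, with 21.1 expected (0.90, 0.542 to 1.41). The low count of Tgfb2 with Tnc was seen in both Cd34 classes of dKO, with 1 cell where 5.27 were expected among Cd34-positive cells and 2 cells where 6.74 were expected among Cd34-negative cells. The interval of each class alone, up to 1.06 and 1.07, included 1.

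Among Cd34-positive dKO cells the ratios of the matrix pairs were 1.13 for Tnc and Bgn, 1.24 for Tnc and Col1a1 and 1.09 for Bgn and Col1a1. Bgn was positive in 33 of these 39 cells, so a ratio with Bgn could not rise far above 1. Of the 23 Tnc-positive cells 22 were Bgn-positive, and of the 26 Col1a1-positive cells 24 were. Among Cd34-negative dKO cells the ratios were 1.70 with 9 cells for Tnc and Bgn, 4.59 with 3 cells for Tnc and Col1a1 and 1.78 with 2 cells for Bgn and Col1a1. All intervals within a class included 1, and whether the matrix pairs are independent within a class was not tested. In cKO, Tnc and Bgn met in 5 cells (4.86 expected), Tnc and Col1a1 in 3 (1.13), Bgn and Col1a1 in 5 (1.77), Tnc and Tgfb2 in 2 (3.02), Bgn and Tgfb2 in 5 (4.65) and Col1a1 and Tgfb2 in 1 (1.13). All of these cKO intervals included 1, and no difference of a pair between the strains was tested.

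**Figure D3:**
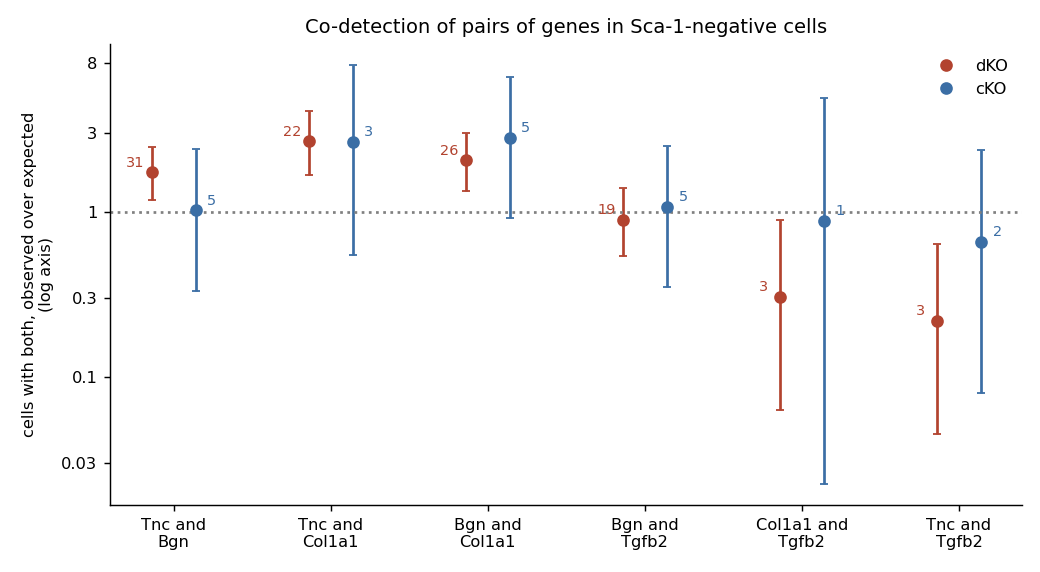
Cells positive for both genes of a pair over the number expected from plate shares, on a log axis, for dKO (red) and cKO (blue) Sca-1-negative cells; whiskers are exact Poisson intervals of the observed count, printed beside each point, and the dotted line marks 1. The dKO pairs among Tnc, Bgn and Col1a1 lie above the line, and Tgfb2 with Tnc and Tgfb2 with Col1a1 lie below it.

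**Figure D4:**
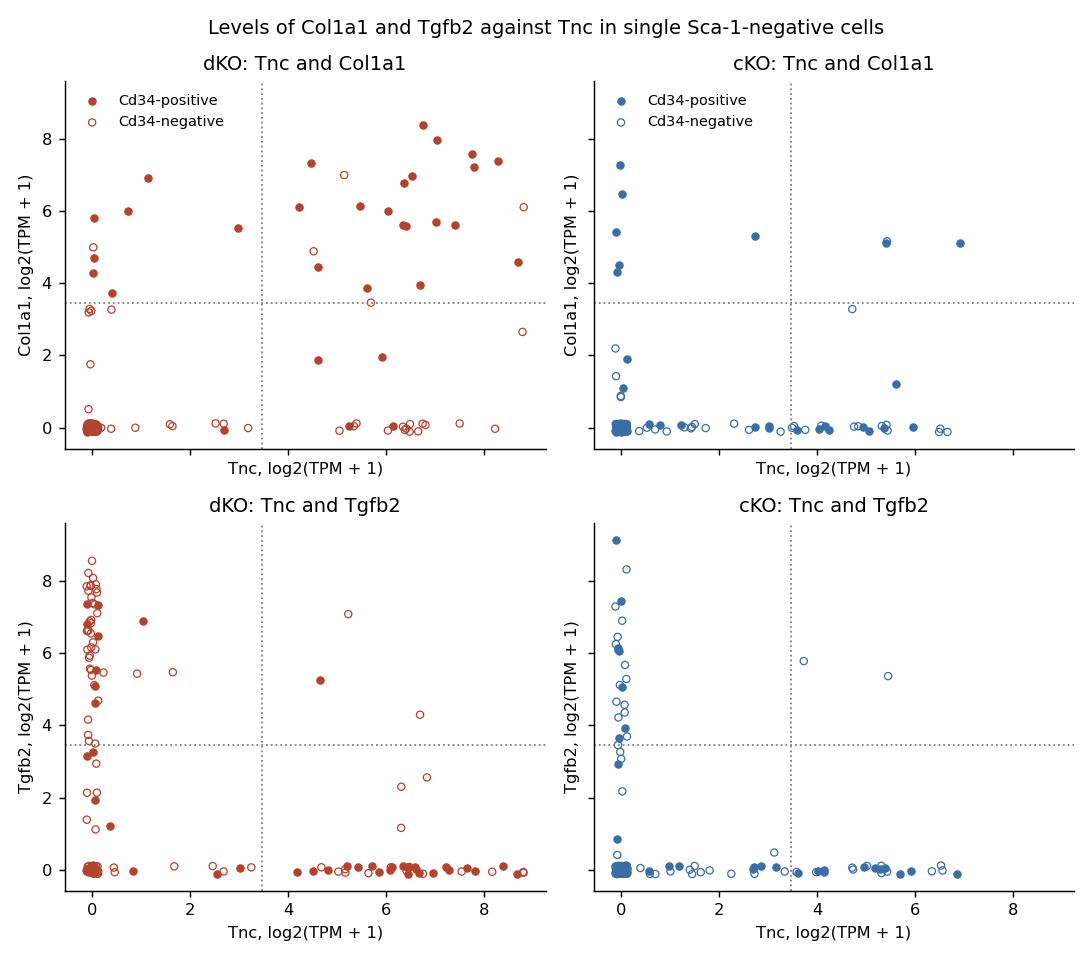
Levels of Col1a1 (top) and Tgfb2 (bottom) against Tnc, each as log2(TPM + 1), in single Sca-1-negative cells of dKO (left) and cKO (right); filled points are Cd34-positive cells, dotted lines mark 10 TPM, and a small random jitter separates cells at 0. In dKO, 22 cells lie in the upper right field for Tnc and Col1a1 and 3 for Tnc and Tgfb2.

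The genes whose levels were most like each member were ranked by Pearson correlation of log2(TPM + 1) after subtraction of the plate mean, over 337 Sca-1-negative cells and 8267 genes positive in at least 10% of them. Cells share their plate and a fixed total, so these values are descriptions. Nearest to Tnc were Flrt2 (r = 0.52), which encodes a cell adhesion protein, C1s1 (0.46), a complement protease gene, and Sfrp1 (0.46), which encodes a secreted WNT inhibitor. Flrt2 was positive in 22 of the 42 Tnc-positive dKO cells (52.4%), against 4.46% of the Tnc-negative ones. In cKO it was positive in 33.3% of the Tnc-positive and 13.2% of the Tnc-negative cells. Within each strain r with Tnc was 0.68 in dKO and 0.31 in cKO for Flrt2, 0.53 and 0.34 for C1s1, and 0.64 and 0.26 for Sfrp1. No difference of r between the strains was tested. Nearest to Bgn were Col1a1 (0.45), Creb5 (0.42), a transcription factor gene, and Scrg1 (0.40). Here r was 0.52 in dKO and 0.32 in cKO for Col1a1, 0.55 and 0.25 for Creb5, and 0.55 and 0.20 for Scrg1. Nearest to Col1a1 were Pdlim3 (0.59), which encodes an actin-associated protein, Sphkap (0.54) and S100a4 (0.54), a calcium-binding protein gene. S100a4 was positive in 86.7% of the Col1a1-positive dKO cells and 14.5% of the Col1a1-negative ones, and in 8 of the 9 Col1a1-positive cKO cells. Mean S100a4 itself did not separate the strains, at 90.2 TPM in dKO and 110.4 TPM in cKO with overlapping plates.

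Nearest to Tgfb2 were Pthlh (0.60), which encodes parathyroid hormone-related peptide, Robo2 (0.60), an axon guidance receptor gene, and Wnt7b (0.54), a WNT ligand gene. Pthlh was positive in 32 of the 50 Tgfb2-positive dKO cells (64%), against 4.81% of the Tgfb2-negative ones. In cKO it was positive in 8 of 23 Tgfb2-positive cells (34.8%) and in 7.50% of the Tgfb2-negative ones. Robo2 was positive in 80% of the Tgfb2-positive dKO cells and 65.2% of the Tgfb2-positive cKO cells, against 27.9% of the Tgfb2-negative dKO cells and 15% of the Tgfb2-negative cKO cells. Over the same cells, r between Tgfb2 and Tnc was -0.29, which placed Tnc at rank 8253 of the 8267 genes. The r between Tgfb2 and Col1a1 was -0.17 and that between Tgfb2 and Bgn -0.04. Within each strain r with Tgfb2 was -0.37 in dKO and -0.12 in cKO for Tnc, and -0.23 and -0.03 for Col1a1. For Bgn it was -0.04 in both.

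Other genes of the TGF-beta pathway did not follow Tgfb2 as a group. Beside the counts here and below, the rule called 1.76% of the 7103 measured genes higher in dKO and 3.96% lower. Of 3 ligand genes measured at 5 TPM or more, Tgfb2 alone passed the rule. Tgfb1, named after its values were seen, averaged 8.28 TPM in dKO and 7.29 TPM in cKO, and Tgfb3, named likewise, 7.95 TPM in dKO and 9.09 TPM in cKO. Tgfb3 was nevertheless found with Tgfb2 in single cells, in 19 of 50 Tgfb2-positive dKO cells (38%) and 7.69% of the Tgfb2-negative ones, and in 10 of 23 Tgfb2-positive cKO cells (43.5%) and 15.6% of the Tgfb2-negative ones. Of 9 measured genes for the latent complex and its activators, 1 was higher in dKO and none lower. This was Itgb6, which encodes a chain of an integrin that frees TGF-beta, at 21.2 and 16.3 TPM on the dKO plates and 9.59, 7.56 and 4.88 TPM on the cKO plates. Of 4 measured receptor genes, none was higher and Tgfbr3, the coreceptor betaglycan, was lower. It stood at 8.13 and 3.70 TPM on the dKO plates and 8.36, 17.4 and 16.2 TPM on the cKO plates. This call was lost under both other scalings. None of 9 measured SMAD genes and regulators passed, with Tgif1 at 31.4 TPM in dKO and 42.6 TPM in cKO and Smad2 at 21.7 and 26.2 TPM; under rescaling Smurf2 was called higher. Of 10 measured target genes of TGF-beta, Itgb6, the same call as above, was higher and none was lower. Their median log2 ratio was -0.42, beside -0.12 over all measured genes.

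Few other matrix genes were measured at all in these cells. The share over all measured genes was again 1.76% higher and 3.96% lower. Bgn and 1 other of 10 small leucine-rich proteoglycans averaged 5 TPM or more, and Bgn alone passed. Col1a1 was the sole fibrillar collagen gene of 11 measured at that level. Col1a2, whose product pairs with that of Col1a1 in type I collagen, was at 0 in every dKO cell of this sort, which allows a positive share of up to 1.95%. In cKO it was positive in 8 cells, all of them Cd34-positive, with a plate-averaged mean of 1.99 TPM. Of the 9 Col1a1-positive cKO cells, 1 was Col1a2-positive. Of 8 measured genes for collagen processing, P4ha1, for proline hydroxylation, was higher at 8.97 TPM in dKO and 5.17 TPM in cKO. Plod1, for lysine hydroxylation, was lower at 5.74 TPM in dKO and 13.1 TPM in cKO. Of 6 measured tenascins and matrix glycoproteins, Tnc was higher and Tnxb lower, the second at 2.92 TPM in dKO and 8.79 TPM in cKO. Tnxb was also scarce in Cd34-positive cells, positive in 2.56% of them in dKO and 0% in cKO, against 14.8% of Cd34-negative dKO cells and 41.2% of Cd34-negative cKO cells. Of 11 measured matrix receptor genes, 2 were higher and none lower. These were Itgb6, already counted in the TGF-beta lists, and Cd44, a hyaluronan receptor gene, at 202 TPM in dKO and 127.4 TPM in cKO. Of the genes of mesenchymal transition, 2 of 9 were measured, S100a4 and Snai2, and neither passed. Snai2 stood at 11.3 TPM in dKO and 6.23 TPM in cKO. Other calls in the lists also moved with the scaling. Bmp1 of collagen processing and Gas1 of the bulge markers were called higher under both other scalings, and Thbs2 of the glycoproteins with size factors. Under rescaling Col5a2 was called higher, and Col1a2 and the target gene Col4a1 lower, so the fibrillar collagens stood at 2 higher and 1 lower.

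The member-positive cells carried keratinocyte markers, as did nearly all other cells of this sort. At least 3 of 6 basal keratinocyte markers were positive in 100% of the cells positive for any given member, in dKO and in cKO. In the cells negative for a given member the share was 96.6% to 97.7%. No gene of the 6 passed the rule, with Krt5 at 825 TPM in dKO and 901 TPM in cKO. Krt14 was lower in the cells with Bgn, at 294 TPM in Bgn-positive and 923 TPM in Bgn-negative dKO cells, and in those with Tgfb2, at 352 TPM in Tgfb2-positive and 805 TPM in Tgfb2-negative dKO cells. It was also lower in those with Col1a1, at 294 TPM in Col1a1-positive and 746 TPM in Col1a1-negative dKO cells. In Tnc-positive and Tnc-negative dKO cells it was 669 and 653 TPM. Of 10 measured bulge stem cell markers, Cd200 was higher at 42.7 TPM in dKO and 25.3 TPM in cKO, and Krt15 lower at 233 TPM in dKO and 566 TPM in cKO. Of 9 measured suprabasal and upper follicle genes, Krtdap, at 183.9 TPM in dKO and 69.9 TPM in cKO, and Krt17, at 814 TPM in dKO and 443 TPM in cKO, were higher. Lgr6, at 7.53 TPM in dKO and 18.7 TPM in cKO, was lower. Over all measured genes the rule called 1.76% higher and 3.96% lower.

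Markers of cells that usually make these matrix genes had low means, though some single cells were positive for at least 1 of them. Of 10 fibroblast markers, none averaged 5 TPM, Lum, Dpt and Col6a3 were at 0 in all kept cells, 6 never reached 10 TPM, and no cell was positive for 3 or more. Their summed level averaged 6.04 and 4.32 TPM on the dKO plates and 8.27, 3.79 and 4.46 TPM on the cKO plates, with 0 as the lowest and the median cell on each. The sum in single cells reached at most 61.7 TPM in dKO and 137.6 TPM in cKO. It came mostly from Thy1, at 4.98 TPM in dKO and 3.20 TPM in cKO, and in cKO also from Col1a2. This sum did move with the matrix genes. At least 1 fibroblast marker was positive in 13 of the 30 Col1a1-positive dKO cells (43.3%) and 8.06% of the Col1a1-negative ones, and in 35.7% of Tnc-positive and 7.14% of Tnc-negative dKO cells. It also went with Cd34, at 33.3% of Cd34-positive and 8.70% of Cd34-negative dKO cells. In cKO these shares were 26.9% and 9.16%. Whether the link to Col1a1 or Tnc holds within a Cd34 class was not tested. Without all cells positive for a fibroblast marker, the log2 ratio of dKO over cKO was 2.26 for Tnc, 1.53 for Bgn and 1.70 for Tgfb2, and for Col1a1 it was 1.73, against 2.46 with them. Markers of dermal papilla, smooth muscle and pericytes, endothelium, immune cells, and Schwann cells and nerve held no gene at 5 TPM or more. Of 6 melanocyte markers Mitf alone did, at 18.6 TPM in dKO and 23.4 TPM in cKO, and did not pass. No cell was positive for 3 or more markers of any of these lists. The part of the fibroblast markers in the other results was not tested. The median number of genes per cell was 5168.5 in Col1a1-positive and 5198 in Col1a1-negative dKO cells, and 4974.5 in Tgfb2-positive and 5256.5 in Tgfb2-negative ones.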

How the data were processed

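Single cells were sorted into plates, amplified by Smart-seq2 and sequenced as paired-end Nextera XT libraries, per the labels' protocols. Smart-seq2 has no molecular identifiers, so amplification copies are not independent molecules, and no strand information, so overlapping antisense genes cannot be told apart. The authors deposited 1 table of TPM values for 384 cells. Bowtie2 2.2.9 and RSEM 1.2.30 with mm10 (GRCm38) are named per the submitters' processing notes. Which annotation release was used was not given in the sources used here. TPM keeps no depth, so genes per cell stand in for it. The number in a cell's title was read as its plate.

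Cells under 1000 genes at 1 TPM (6 cells) were left out, which kept 154 dKO and 183 cKO Sca-1-negative cells. No doublet caller was run. Mean TPM per plate, plates weighted equally, gave the ratios, with a pseudocount of 1 TPM. Shares have exact Clopper-Pearson 95% intervals, and a share of 0 has a limit of 3 cells. Besides the members and Cd34, the text names up to 4 genes of each of the other 21 lists that pass the 1.5-fold rule, or the 2 with the highest level where none passes, the 3 genes most like each member, and genes said to be named after their values were seen. Some lists of other cell types are given by counts alone. The members, lists and rules were chosen with earlier results of these data known. Positions come from GENCODE for GRCm38, promoter windows from RefSeq. Python 3.11.15, numpy 2.4.6, pandas 2.3.3 and scipy 1.17.1 were used, and the ratio and call steps were tested on simulated data. The groups share replicate numbers only as plate numbers, so they were not paired.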

Additional observations from a re-analysis of the deposited data

How the results depend on the processing

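No setting tried turned the direction of a member's ratio of dKO over cKO, and 42 of the recomputed values moved beyond the spread between plates, the counting interval or a factor of 1.5. A pseudocount of 10 TPM gave log2 ratios of 1.41 for Tnc, 1.16 for Col1a1 and 1.17 for Tgfb2. The difference of mean log2(TPM + 1) was 0.99 for Tnc and 1.02 for Col1a1. Without a filter on cells Bgn reached 2.89, which rests on 1 dKO cell of plate 2 with few genes. Tgfb2 was 2.91 without the highest 5% of cells per plate, 0.023 in Cd34-positive cells alone and 2.21 in Cd34-negative cells alone. The Cd34-positive value was 1.16 without 1 cKO cell, and the ratio over all cells then 2.04; leaving out this cell, or 2 Col1a1 cells of dKO plate 2 (Cd34-negative log2 ratio 0.42, against 1.56), was added after the data were seen. With 1 plate left out the ranges were 2.08 to 2.59 for Tnc, 1.41 to 1.96 for Bgn, 1.90 to 2.85 for Col1a1 and 1.498 to 1.82 for Tgfb2. The difference in share of positive cells (dKO minus cKO, in points) was 10.1 at 1 TPM and 17.2 at 50 TPM for Tnc, against 13.9 at 10 TPM. It was 19.3 at 20 TPM and 16.8 at 50 TPM for Bgn (21.9), 11.8 at 50 TPM for Col1a1 (15.2), and 25.4 at 1 TPM and 15.8 at 50 TPM for Tgfb2 (20.2). With Cd34-positive set at 1 TPM, the Col1a1 share differed by 38.2 points between Cd34-positive and Cd34-negative dKO cells, against 63.2, and that of Tgfb2 by -1.06, against -12.6; in cKO the Tgfb2 difference was -1.11 at 20 TPM, against 1.25. The 24 co-detection values stayed within their intervals, though that of Col1a1 and Tgfb2 was 0.64 at 1 TPM, against 0.31 at 10 TPM. The percentages of tested genes called higher and lower in dKO (1.76% and 3.96%) became 0.648% and 1.197% with a pseudocount of 10 TPM, 2.78% and 2.09% with plate size factors, and 1.12% and 1.51% with no filter on genes. They were 1.44% and 3.27% at 20 TPM or more, and 2.87% and 3.62% without the highest 5% of cells. After rescaling 4.81% were higher. With 1 plate left out, 2.03% to 6.46% were higher, the most without dKO plate 1, and 5.02% to 10.3% lower, the most without dKO plate 2. Col1a1 was not called without dKO plate 2 or without the highest 5% of cells, where its average fell under 5 TPM. Tnc and Col1a1 fell under the limit of 20 TPM. No paired analysis was possible because the labels name no animal and plate numbers tie no cells across strains. Unknown depth limits what a value of 0 can show.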

Other observations

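Scrg1 and Gja1, a connexin gene, were among the 10 genes most like each of Tnc, Bgn and Col1a1, and were picked out after their values were seen. Gja1 was positive in 78.6% of Tnc-positive, 70.8% of Bgn-positive and 90% of Col1a1-positive dKO cells, against 29.5%, 22.5% and 31.5% of the dKO cells negative for the gene named. In cKO these shares were 66.7%, 43.2% and 88.9%, against 27.7%, 30.1% and 29.9%. Its plate means were 42.4 and 57.3 TPM in dKO and 13.4, 28.8 and 18.6 TPM in cKO. Scrg1 averaged 15.9 and 25.7 TPM on the dKO plates and 16.6, 14.4 and 14.9 TPM on the cKO plates, so that the plates of the strains overlapped. Sema3e, Efnb2 and Nfatc1, also chosen with their values known, were among the 10 genes most like Tgfb2. Nfatc1, a bulge transcription factor gene, was positive in 94% of Tgfb2-positive and 69.2% of Tgfb2-negative dKO cells. Itgb6 and Tgfb2 were both positive in 26 dKO cells, with 17.4 expected from plate shares.

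Among the 6 cells left out for few genes, 1 dKO cell of plate 2 had 8774 TPM of Bgn, more than any kept cell. The other 5 were at 0 for all 4 members.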
